A study of Mus musculus with 18 samples.

Results

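Hox genes Hoxb2, Hoxb3, Hoxb4, Hoxb5, Hoxb6, Hoxb7 and Hoxd8, together with Aldh1a2, which encodes a retinoic acid synthase, were followed through endothelial RNA of mouse heart and liver. They were picked by gene symbol, and all 8 had a row among the 17513 genes of the heart table and the 17242 genes of the liver table. The heart set held 12 libraries of endothelial cells from wild-type adult male mice at homeostasis, with 3 libraries each from regions that the labels call VS, Apex, LV and OR. The liver set came from adult males at homeostasis and held 3 libraries of endothelial cells positive for the red reporter tdTomato and 3 libraries of endothelial cells negative for it. All liver mice carried the same 3 alleles, Ki67-CrexER (a recombinase under the proliferation gene Mki67), Cdh5-DreER (a recombinase under the endothelial gene Cdh5) and the reporter R26-RL-tdT, negative cells included. The OR libraries are headed OZ in the deposited table, and the labels spell out none of the region names.

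The 8 genes were picked for their levels in these same libraries. Those levels are therefore given as a description in both tables. Where the number of them that passed a test is printed, it stands beside the share of all genes and supports nothing. Tests are given for other Hox genes and for other genes of the retinoid pathway, taken from lists of whole families.

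Hox genes encode homeodomain transcription factors. In mammals they lie in 4 clusters, Hoxa to Hoxd, and their order along the chromosome follows the order in which they are used along the body axis, with low numbers used towards the head. Retinoic acid, made from retinol by way of retinaldehyde, binds nuclear RAR and RXR receptors and is a classical inducer of the low-numbered Hox genes in the embryo. Aldh1a2 carries out the last, irreversible step of that synthesis, and in the heart it is known for its activity in the epicardium and in the posterior part of the heart field.

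On build GRCm38 (mm10), the Hoxb genes lie on the plus strand of chromosome 11 in the order Hoxb7, Hoxb6, Hoxb5, Hoxb4, Hoxb3 and Hoxb2, from chr11:96286623-96290162 (Hoxb7) to chr11:96350525-96354012 (Hoxb2). Hoxd8 lies at chr2:74704615-74707933 and Aldh1a2 at chr9:71215789-71296243. In the GENCODE M21 annotation the antisense gene Hoxb3os shares exon positions with Hoxb2 and Hoxb3, and Hoxb5os does so with Hoxb5. Whether the authors' counting used strand is not stated, so reads of these 3 genes and of their antisense partners cannot be told apart. Hoxb4, Hoxb6, Hoxb7, Hoxd8 and Aldh1a2 share no exon position with another annotated gene.

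Promoters of 3 of the 8 genes were held by the RefSeq table (GRCm38.p6), those of Hoxb4, Hoxd8 and Aldh1a2. These 3 are shown as the only entries found, and AGGTCA is marked as the core motif bound by RAR and RXR receptors. Any part of these receptors in the VS values was not tested. Each sequence covers the 250 bases before the start, read 5′ to 3′ on the plus strand, and capitals mark AGGTCA or its reverse complement TGACCT.
Hoxb4, chr11:96318017-96318266: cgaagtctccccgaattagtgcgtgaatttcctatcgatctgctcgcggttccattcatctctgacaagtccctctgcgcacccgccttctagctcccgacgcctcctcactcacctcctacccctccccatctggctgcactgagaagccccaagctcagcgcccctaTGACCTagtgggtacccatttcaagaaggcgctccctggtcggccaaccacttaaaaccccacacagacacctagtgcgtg
Hoxd8, chr2:74704365-74704614: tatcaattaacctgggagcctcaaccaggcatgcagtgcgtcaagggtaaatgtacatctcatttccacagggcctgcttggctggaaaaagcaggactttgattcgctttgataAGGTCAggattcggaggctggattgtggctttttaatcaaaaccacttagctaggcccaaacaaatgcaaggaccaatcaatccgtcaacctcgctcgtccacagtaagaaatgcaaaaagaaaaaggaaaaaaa
Aldh1a2, chr9:71215539-71215788: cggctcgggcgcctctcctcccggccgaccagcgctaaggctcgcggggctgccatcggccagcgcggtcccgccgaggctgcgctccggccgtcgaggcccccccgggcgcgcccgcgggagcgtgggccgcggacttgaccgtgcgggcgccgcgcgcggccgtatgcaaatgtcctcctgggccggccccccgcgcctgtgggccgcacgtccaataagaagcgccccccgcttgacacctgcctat

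The motif began 81 bases before the start of Hoxb4 and 135 bases before that of Hoxd8, and the window of Aldh1a2 held none. G and C made up 77.6% of the Aldh1a2 window, 58.0% of that of Hoxb4 and 44.4% of that of Hoxd8. AGGTCA, searched on both strands, was present in 6 of 24 Hox promoter entries of 22 genes, and in 4607 of all 32851 promoters of the same length. Copies of AGGTCA in the same direction with 1, 2 or 5 bases between them, the classical layouts of retinoid response elements, were found in 0 of the 24 Hox entries. Such direct repeats were present in 0.0335%, 0.00913% and 0.00913% of all promoters. TAATTA, a core motif of homeodomain proteins that does not overlap AGGTCA, was in 2 Hox entries, both of Hoxd11, and in 4.84% of all promoters. A match is a string of letters and shows no binding.

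Heart libraries held 21590386 to 27720132 counts and liver libraries 23715755 to 26538583. Levels are given in CPM, counts scaled to library size with TMM factors (trimmed means of log ratios between libraries), and 1 count was worth 0.0351 to 0.0473 CPM in the heart. Summed over 6 endothelial genes (Pecam1, Cdh5, Kdr, Tek, Emcn and Tie1), levels were 9305 to 10190 CPM in VS libraries and 8768 to 11000 CPM in those of the other regions. In the liver these sums were 6425 to 6749 CPM in positive cells against 5138 to 6037 CPM in negative cells. Of the 6 genes only Kdr had no overlap, with means of 2548 CPM in positive and 1620 CPM in negative cells. The log2 fold change of positive over negative cells was below 0 for 3 of the 6 and above 0 for 3 (median 0.02). VS 1 and tdTomato-negative 3 stood apart from the others of their group. Ventricular cardiomyocyte genes summed to 522.8 CPM in VS 1, to 2596 and 1507 CPM in VS 2 and VS 3, and to 934.3 to 1762 CPM in the other regions. Leukocyte genes summed to 397.4 to 677.8 CPM in positive libraries, to 1482 CPM in tdTomato-negative 3 and to 31.1 and 74.9 CPM in tdTomato-negative 1 and 2. Where leaving out either VS 1 or tdTomato-negative 3 changed the calls, both results are given for the Hox, regulator, receptor and retinoid lists.

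In the heart, the Hoxb genes with more than a trace of RNA, Hoxd8 and Aldh1a2 were all lowest in VS by their means. Apex, LV and OR overlapped each other for all of them but Hoxb3. The fold changes are those of VS over the mean of the 3 other region means, on a log2 scale with their standard error (SE). Fewer cells that express a gene and less RNA per cell cannot be told apart in such bulk libraries.

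Hoxb2, a homeobox gene of paralogue group 2 used in the hindbrain, was at 2.07, 1.56 and 0.464 CPM in VS 1, VS 2 and VS 3. It was at 4.97, 3.45 and 4.05 CPM in Apex, at 4.85, 4.24 and 4.22 CPM in LV, and at 3.50, 4.48 and 5.08 CPM in OR. All 3 VS libraries lay below the other 9, and the 3 other regions overlapped each other. The fold change was -1.65 ± 0.35 (log2, SE), or 3.13-fold lower in VS.

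Hoxb3, which neighbours Hoxb2 in the cluster, differed the least of the Hoxb genes. It was at 0.911, 0.617 and 0.718 CPM in VS, against 1.23, 0.844 and 1.55 CPM in Apex. LV had 1.63, 1.74 and 1.73 CPM and OR had 1.80, 1.75 and 1.71 CPM. VS 1 lay above Apex 2, so VS and Apex overlapped, while every VS library was below every LV and OR library. Every Apex library was also below every LV and OR library. The fold change was -1.02 ± 0.35 (log2, SE).

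Hoxb4, known for its role in the self-renewal of blood stem cells, was at 3.23, 1.44 and 1.22 CPM in VS. Apex had 4.94, 5.20 and 6.18 CPM, LV 3.71, 6.69 and 5.75 CPM, and OR 5.68, 7.52 and 5.95 CPM. VS 1 came close to the lowest of the other libraries, LV 1, and VS 2 and VS 3 were far below it. The fold change was -1.53 ± 0.31 (log2, SE), or 2.89-fold lower in VS, and without VS 1 it was -2.09 ± 0.30, or 4.25-fold lower.

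Hoxb5 marks long-term blood stem cells in mice and acts in endothelial specification. It had 28, 9 and 23 counts in the VS libraries, or 0.982, 0.370 and 0.971 CPM. Apex had 2.71, 4.32 and 3.14 CPM, LV 3.15, 5.07 and 3.30 CPM, and OR 3.88, 5.96 and 3.07 CPM. The highest VS library was thus well under the lowest of the other 9. Its fold change of -2.29 ± 0.37 (log2, SE), or 4.90-fold lower, was the largest among the Hoxb genes.

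Hoxb6 and Hoxb7, the next genes towards the 5′ end of the cluster, were barely detected in the heart. Hoxb6 had 2, 0 and 0 counts in VS and between 0 and 9 counts in each of the other 9 libraries, and it did not pass the filter on low counts. Hoxb7 had 1, 3 and 1 counts in VS and 1 to 14 counts elsewhere. VS overlapped LV and OR but not Apex for Hoxb6, and Apex and LV but not OR for Hoxb7. The Hoxb7 fold change of -2.17 had an SE of 0.92.

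Hoxd8, a gene of another cluster on another chromosome, had the pattern of Hoxb5. It was at 0.982, 0.411 and 0.633 CPM in VS, against 2.19, 3.13 and 2.12 CPM in Apex. LV had 3.08, 2.26 and 2.61 CPM and OR had 1.75, 3.00 and 1.86 CPM. The VS libraries did not overlap the others, and the fold change was -1.84 ± 0.37 (log2, SE), or 3.57-fold lower.

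Aldh1a2 showed the largest difference of the 8 genes. It had 3, 1 and 8 counts in VS, or 0.105, 0.0411 and 0.338 CPM. Apex had 79, 30 and 35 counts (2.93, 1.06 and 1.33 CPM), LV 29, 40 and 65 counts (1.08, 1.58 and 2.49 CPM) and OR 35, 27 and 23 counts (1.66, 1.05 and 0.872 CPM). Every VS library was below every other library, and the other 3 regions overlapped. The fold change was -3.23 ± 0.65 (log2, SE), or 9.40-fold lower in VS, and it was -2.99 ± 0.75 without VS 1 and -4.27 without VS 3.

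**Figure D1:**
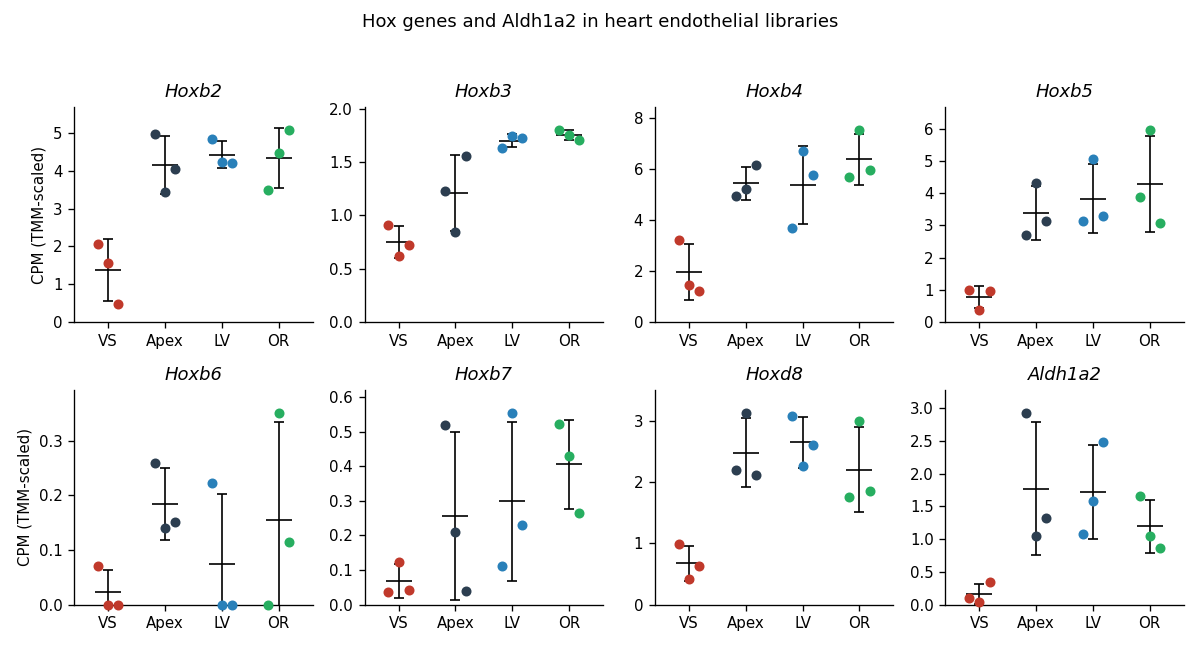
Level in CPM (vertical axis, TMM-scaled counts) of each of the 8 genes in the 12 heart libraries, by region; each point is 1 library and the bars are the mean ± SD of 3 libraries. Hoxb2, Hoxb4, Hoxb5, Hoxd8 and Aldh1a2 have all 3 VS points below all 9 others, whereas Hoxb3, Hoxb6 and Hoxb7 overlap.

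Against single regions, Hoxb5 and Aldh1a2 were lower in VS each time. The members were not all alike in this, since Hoxb3 in VS overlapped Apex only, and Hoxb7 in VS overlapped Apex and LV but not OR. Hoxb5 differed by -2.12 ± 0.42 between VS and Apex, by -2.30 ± 0.42 between VS and LV and by -2.46 ± 0.42 between VS and OR (log2, SE). Aldh1a2 differed by -3.44 ± 0.71, -3.39 ± 0.71 and -2.87 ± 0.71 in the same 3 comparisons, which share the VS libraries. Between Apex, LV and OR no tested member differed by more than 1 log2 unit, and the largest such difference was -0.64 ± 0.88 for Hoxb7 between Apex and OR. Of the 7 members that passed the filter, 0 had an adjusted p under 0.05 for VS against the other regions by edgeR's quasi-likelihood test with Benjamini-Hochberg adjustment, as did 0 of all 13542 genes (0%). In 5 of the 8 the VS libraries lay below all 9 others, as they did for 0.473% of all genes tested. Without VS 1, 5 of 7 passed as lower, where 1.21% of all genes did, and 0.126% of all genes passed as lower by DESeq2, where the same number of members did. Those counts describe genes chosen for this contrast and support nothing.

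Within the 9 libraries of Apex, LV and OR the 7 members above the filter had correlations of both signs. The median Pearson r over their 21 pairs was 0.00992 across these libraries, on log2 CPM, with a range of -0.391 to 0.619. The highest value belonged to Hoxb4 and Hoxb5, neighbours in the cluster. These values describe 9 libraries of 3 regions that share 1 table and its scaling. Counting error weakens such correlations where counts are low, as for Hoxb7 with 1 to 14 counts. They therefore cannot show whether the genes vary independently.

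Per length, the order of the genes in the heart was Hoxb2, Hoxb4, Hoxb5, Hoxd8, Aldh1a2, Hoxb3, Hoxb7 and Hoxb6, in TPM (transcripts scaled to gene length and library size) over the 12 libraries. Hoxb2 averaged 5.42 ± 2.26 TPM (SD, n = 12) and was above Hoxb4 (3.38 ± 1.33 TPM) in 11 of 12 libraries. Hoxb4 was above Hoxb5 (3.02 ± 1.56 TPM) in 7 of 12, so these neighbours in the order were not separated. Hoxd8 followed at 1.96 ± 0.94 TPM. Aldh1a2 (0.993 TPM) was above Hoxb3 (0.760 TPM) in 7 of 12 libraries, again no clear order, and Hoxb7 and Hoxb6 averaged 0.389 and 0.154 TPM.

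The other Hox genes of the heart that could be tested all had lower mean levels in VS. Of the 39 Hox genes, 32 are not among those described above, 23 of these had a row in the heart table, and 9 passed the filter on low counts. All 9 had a negative fold change in VS, with a median of -1.59 (log2), against a median of 0.00149 over all genes, of which 49.7% were below 0. Without VS 1 the median was -2.66 over 10 genes. The other 14 each averaged under 0.25 CPM over the VS libraries and over the pooled libraries of the remaining regions. A gene that is low in VS can pass this filter on its counts in other regions.

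By edgeR, 0 of the 9 passed an adjusted p of 0.05, like 0 of all 13542 genes (0%). At an unadjusted p under 0.05, 7 of the 9 were lower, against 2.19% of all genes. DESeq2, run as an alternative, called 3 of 9 as lower, Hoxa2 and Hoxa7 among them, where it called 17 of all genes as lower (0.126%). With VS 1 left out, edgeR called 7 of 10 as lower (among them Hoxa2, Hoxa3, Hoxa5, Hoxa6, Hoxa7 and Hoxd4), against 1.21% of all genes. That count rests on VS 2 and VS 3, and VS 1 was singled out after its effect on the calls was known. In VS 1, 13 of 15 Hox genes that passed the filter were higher than in both VS 2 and VS 3.

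Reads of some of these genes cannot be told apart from those of overlapping ones. Exons of Hoxa3, Hoxa4, Hoxa7 and Hoxd4 overlap antisense genes, and those of Hoxa2, Hoxa3 and Hoxd4 overlap genes on the same strand. Hoxa7, a gene of the middle of its cluster, was at 0.876, 0.288 and 0.464 CPM in VS and at 1.36 to 3.83 CPM in the other 9 libraries, and no library overlapped. Its fold change was -2.06 ± 0.42 (log2, SE, edgeR adjusted p 0.391, and 0.0110 without VS 1). Hoxa2, the hindbrain gene of the same paralogue group as Hoxb2, was at 0.421, 0.206 and 0.211 CPM in VS and at 0.710 to 2.93 CPM elsewhere. Its fold change was -2.30 ± 0.52 (log2, SE, edgeR adjusted p 0.481). Hoxa4 also had no overlap, at 1.37 to 1.81 CPM in VS and 1.97 to 4.11 CPM elsewhere, but its fold change of -0.86 was the smallest of the 9. In all, 4 of the 9 genes had every VS library below every other one, against 0.473% of all genes.

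The Hoxa cluster lies on chromosome 6, apart from Hoxb and Hoxd. Hoxa genes summed to 8.48, 4.77 and 3.88 CPM in VS and to between 11.02 and 23.1 CPM in the other libraries. Hoxb genes summed to 7.29, 4.11 and 3.67 CPM in VS and to between 13.7 and 20.6 CPM elsewhere. Hoxd genes summed to 2.87, 0.822 and 0.844 CPM in VS and to between 2.92 and 5.97 CPM elsewhere, so VS 1 nearly reached the lowest of the others. Hoxc genes were near 0 throughout, with no library above 0.186 CPM for the whole cluster.

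**Figure D2:**
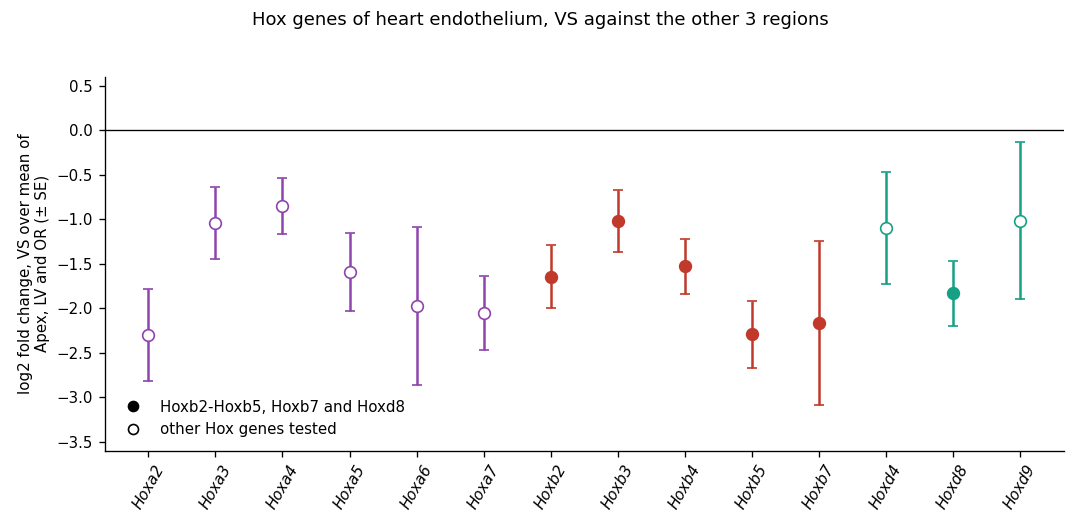
Log2 fold change of VS over the mean of Apex, LV and OR (vertical axis) for 14 of the 15 Hox genes that passed the filter on low counts, in cluster order; bars are the SE, filled points are genes described first and open points the other Hox genes. All 14 points lie below 0, from -2.30 for Hoxa2 to -0.86 for Hoxa4.

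Marker genes of other cells were set beside these values. All 10 fibroblast genes had a negative fold change in VS (median -0.65, log2), while 0 passed an adjusted p of 0.05 by edgeR and 4 were lower at an unadjusted one under 0.05, where 2.19% of all genes were. Their sum was 254.2 to 309.6 CPM in VS and 238.9 to 1032 CPM elsewhere, so the ranges overlapped. Summed over all Hox genes, levels were 18.7, 9.82 and 8.40 CPM in VS and 29.2 to 44.3 CPM elsewhere. Ventricular cardiomyocyte genes had a positive fold change in VS for 6 of 6 (median 0.39, log2), and 0 passed by edgeR with 0 at an unadjusted p under 0.05. Without VS 1 their median was 0.80 and 3 of 6 passed as higher, where 3.9% of all genes did. Leukocyte genes summed to 16.4 to 28.9 CPM in VS and to 12.5 to 29.3 CPM elsewhere. Smooth muscle and pericyte genes summed to 918.9 to 1758 CPM in VS and to 1292 to 2268 CPM elsewhere. Of 4 atrial cardiomyocyte genes tested, 3 had a positive fold change in VS (median 1.285, log2). By edgeR 0 passed, and 2 were higher at an unadjusted p under 0.05, where 1.92% of all genes were. Without VS 1, 1 of the 4 passed as higher, where 3.9% of all genes did. Their sum was 7.82 to 24.7 CPM in VS and 5.07 to 49.2 CPM elsewhere. Genes of veins and arteries summed to 1031 to 1201 CPM in VS and to 985.2 to 1323 CPM elsewhere. The part of these marker genes in the Hox result was not tested.

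Aldh1a2 is a marker of mesothelium and epicardium, so the genes of that cover layer were read beside it. Upk3b, a uroplakin of mesothelial cells, had 169 and 120 counts in LV 1 and LV 3 and between 0 and 4 counts in the other 10 libraries. Msln, which encodes mesothelin, had 100 and 69 counts in the same libraries and 0 to 12 counts in the rest. Summed over 12 mesothelial and epicardial genes, most of it from Wt1, levels were 67.5 to 96.7 CPM in VS and 64.8 to 134.0 CPM elsewhere. Of these 12 genes 7 passed the filter, all with a fold change below 0 in VS (median -0.80, log2), and 0 passed the test by edgeR with 0 at an unadjusted p under 0.05. Without VS 1 the median was -1.34 over 10 genes, of which 0 passed. Their part in the Aldh1a2 values was not tested.

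Among other genes of the retinoid pathway, 1 stood out in VS, in the other direction. Of 19 genes of retinoid uptake, transport and metabolism, 18 had a row in the heart table and 11 passed the filter, with a median fold change in VS of -0.11 (log2). By edgeR 0 of the 11 passed, with Aldh1a2 as the 1 gene lower and Stra6 as the 1 gene higher at an unadjusted p under 0.05, where 1.92% of all genes were higher. Stra6 encodes the membrane receptor that takes up retinol from its carrier protein, and it was singled out after its values were seen. It was at 2.28, 1.93 and 2.24 CPM in VS. Apex had 0.928, 0.422 and 0.303 CPM, LV 0.0371, 0.277 and 0.499 CPM, and OR 0.0473, 0.468 and 0.531 CPM. VS lay above all other libraries, as it did for 0.281% of all genes, and the fold change was 2.50 ± 0.56 (log2, SE), or 5.67-fold higher. The edgeR adjusted p was 0.481, and 0.0427 with VS 1 left out, where 3.9% of all genes passed as higher. By DESeq2 Stra6 was the only gene called higher in VS of 13542 (0.00738%).

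**Figure D3:**
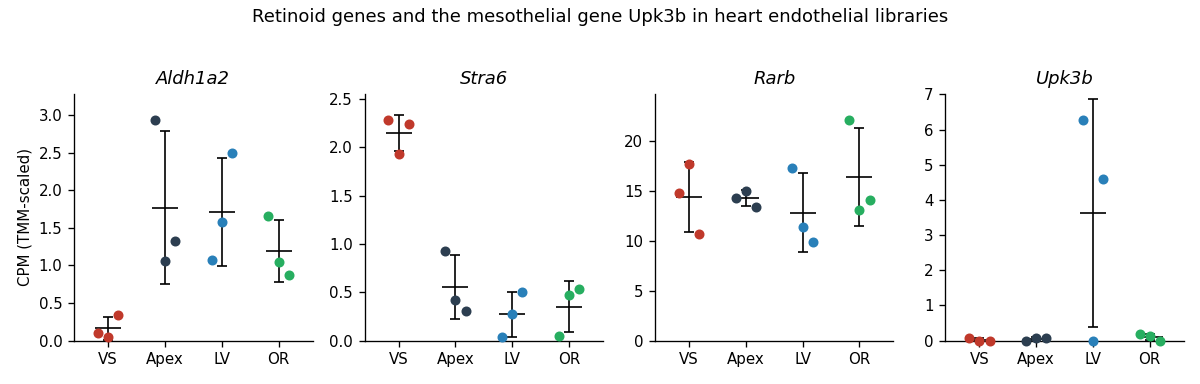
Level in CPM (vertical axis, TMM-scaled counts) of Aldh1a2, Stra6, Rarb and Upk3b in the 12 heart libraries by region; points are libraries and bars the mean ± SD of 3. Aldh1a2 is lowest and Stra6 highest in VS, Rarb overlaps in all regions, and Upk3b stands out only in LV 1 and LV 3.

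Aldh1a1 and Aldh1a3, the other retinaldehyde dehydrogenases that make retinoic acid, averaged 2.63 ± 1.01 and 2.30 ± 0.30 CPM in VS (SD, n = 3) and 4.38 ± 2.07 and 2.42 ± 0.78 CPM in the other regions (SD, n = 9). Their fold changes were -0.72 ± 0.41 and -0.06 ± 0.32 (log2, SE, edgeR adjusted p 0.987 and 0.994). Rdh10, which oxidises retinol to retinaldehyde, averaged 7.90 ± 2.12 CPM in VS and 9.58 ± 3.10 CPM elsewhere. Dhrs3, which carries out the reverse reaction and is itself induced by retinoic acid, averaged 505.4 ± 149 CPM in VS and 481.1 ± 67.1 CPM elsewhere. Cyp26b1, which degrades retinoic acid, averaged 57.5 ± 30.1 CPM in VS and 59.4 ± 33.2 CPM elsewhere, and its spread within a region was large. Rbp7, a retinol carrier of capillary endothelium, was the most abundant of the list per length, at 1028 TPM over the 12 libraries.

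Of 9 retinoid receptors and corepressors, all tested, 0 passed by edgeR, 0 had an unadjusted p under 0.05, and the median fold change was -0.00402 (log2). Rarb, the receptor gene that retinoic acid induces most directly, was at 14.4 ± 3.49 CPM in VS (SD, n = 3) and 14.5 ± 3.54 CPM in the other regions (SD, n = 9). Its fold change was -0.00402 ± 0.21 (log2, SE). Rarg, the most abundant of the receptors per length at 131.1 TPM, had a fold change of 0.26 ± 0.12 (edgeR adjusted p 0.987). Of 9 Hox cofactor genes, such as the Pbx and Meis families, 8 were tested and 0 passed by edgeR or DESeq2. Their median was 0.10 and 0 reached an unadjusted p under 0.05. Of 14 regulators of Hox chromatin, among them Polycomb and trithorax group genes, 11 were tested and 0 passed by edgeR or DESeq2, and 0 reached an unadjusted p under 0.05. Without VS 1, 1 of them passed as lower by edgeR, Suz12 (fold change -0.67, edgeR adjusted p 0.0171), where 1.21% of all genes did. Suz12 encodes a core subunit of Polycomb repressive complex PRC2, and its part in the Hox values was not tested. VS 1 was singled out after its effect on the calls was known.

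Genes whose level followed the Hoxb genes most closely were ranked by Pearson r over the 12 heart libraries with the mean standardised log2 CPM of the 5 Hoxb genes that passed the filter. Among 11679 named genes of at least 1 CPM, the closest were Vgll3, a cofactor of TEAD factors (r 0.897, Spearman rho 0.643), and Wnt11, a noncanonical Wnt ligand (r 0.875, rho 0.769). They were followed by Minpp1, an inositol polyphosphate phosphatase (r 0.865, rho 0.867), Mtrr, methionine synthase reductase (r 0.835, rho 0.692), and Ttyh1, a membrane channel gene (r 0.824, rho 0.685). Vgll3 averaged 0.625 ± 0.41 CPM in VS and 2.41 ± 0.71 CPM in the other regions. With Aldh1a2, the closest were Zfp24, a zinc finger factor (r 0.879, rho 0.692), and Lpar1, a receptor for lysophosphatidic acid (r 0.878, rho 0.888). Fli1, an ETS factor of endothelium (r 0.857, rho 0.790), Bmper, an extracellular BMP regulator (r 0.848, rho 0.958), and Ccdc127 (r 0.845, rho 0.629) came next. Bmper averaged 0.339 ± 0.011 CPM in VS and 1.28 ± 0.61 CPM elsewhere. These values are the top of a ranking over points that include the 3 low VS libraries, and they are given as a description.

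In the liver the Hoxb genes were the most abundant of the 8, and Hoxd8 and Aldh1a2 were the lowest. Hoxb5 was the highest per length, at 40.4 ± 8.74 TPM (SD, n = 6), and was above Hoxb2 (31.8 ± 1.28 TPM) in 5 of 6 libraries. Hoxb7 (14.1 ± 3.43 TPM), Hoxb4 (10.1 ± 2.23 TPM), Hoxb6 (7.16 ± 1.42 TPM) and Hoxb3 (5.67 ± 0.83 TPM) followed. Hoxb7 was above Hoxb4 and Hoxb4 above Hoxb6 in all 6 libraries, and Hoxb6 was above Hoxb3 in 5 of 6. Hoxd8 averaged 0.585 TPM, with 1.11 and 1.56 TPM in tdTomato-negative 1 and 2 and 0.07 to 0.32 TPM in the other 4 libraries, and Aldh1a2 averaged 0.0583 TPM. Set beside the heart values above, all 6 Hoxb genes had higher mean TPM in the liver table, and Hoxd8 and Aldh1a2 had lower ones. The tables were normalized separately and come from mice of different genotype, so those differences were not tested.

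**Figure D4:**
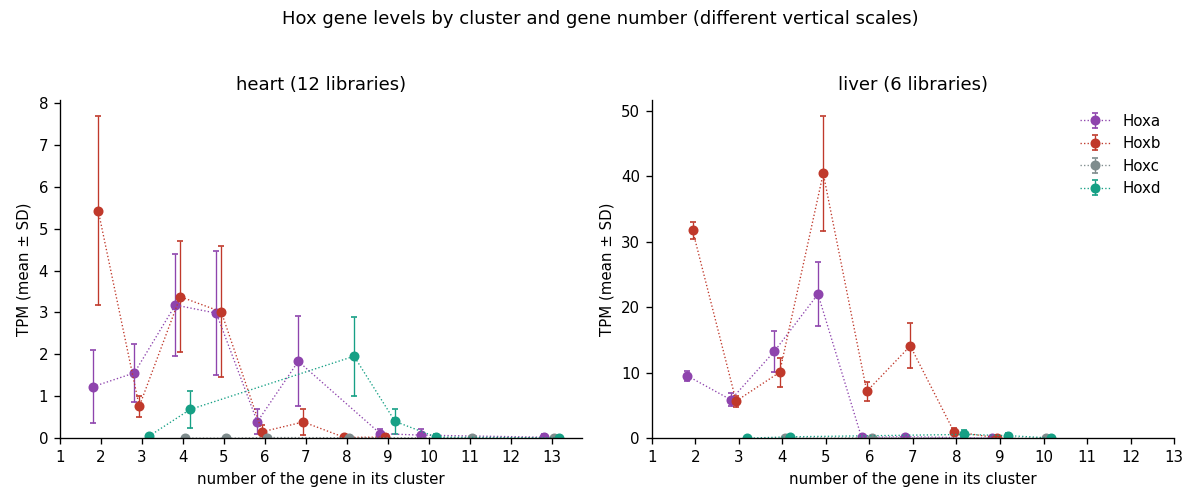
TPM (vertical axis, mean ± SD over 12 heart or 6 liver libraries, with a separate scale in each panel) of Hox genes with a row in the tables, all but 1 of them drawn, by cluster (colour) and gene number (horizontal axis). Hoxb2 and Hoxb5 are among the highest in both organs. Hoxb2 to Hoxb7 all average higher in liver than in heart, Hoxb6 and Hoxb7 at 7.16 and 14.1 TPM against 0.154 and 0.389 TPM. Hoxc genes lie near 0.

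Among the other Hox genes of the liver, those of low number in the Hoxa cluster were the most abundant. Hoxa5 (22.0 TPM), Hoxa4 (13.3 TPM), Hoxa2 (9.53 TPM) and Hoxa3 (5.87 TPM) were expressed, whereas Hoxa6 and Hoxa7 averaged 0.132 and 0.227 TPM. In the heart Hoxa7 averaged 1.84 TPM. Hoxb8, next to Hoxb7 in the cluster, averaged 1.03 TPM in the liver and 0.0217 TPM in the heart.

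The liver comparison sets endothelial cells with the reporter, which depends on recombinases under Mki67 and Cdh5, against cells without it. For 5 of the 6 Hoxb genes the libraries of both populations overlapped, and Hoxb4 and Hoxd8 had the clearest lower means in positive cells. Hoxb4 was at 12.7, 13.0 and 12.5 CPM in positive libraries, against 21.0, 18.7 and 14.5 CPM in negative libraries. All positive values were below all negative ones, as for 9.91% of all genes tested, and the fold change was -0.51 ± 0.16 (log2, SE). Hoxd8 had 2, 8 and 9 counts in positive libraries, against 34, 42 and 5 counts in negative libraries. The groups overlapped through tdTomato-negative 3, and Hoxd8 did not pass the filter on low counts.

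Hoxb5 was at 51.9, 51.5 and 44.8 CPM in positive libraries, against 41.2, 27.3 and 47.6 CPM in negative ones. The groups overlapped, and its fold change was 0.35 ± 0.20 (log2, SE). Hoxb2 was at 24.3, 24.8 and 23.3 CPM in positive libraries, against 22.2, 23.8 and 22.4 CPM in negative ones (fold change 0.08 ± 0.09). Hoxb3 and Hoxb6 had fold changes of 0.06 ± 0.18 and 0.01 ± 0.30, with overlapping groups. Hoxb7 was at 10.6, 9.56 and 8.06 CPM in positive libraries, against 13.3, 12.8 and 7.10 CPM in negative ones (fold change -0.23 ± 0.26). For Hoxb6 and Hoxb7 tdTomato-negative 3 was the lowest of all 6 libraries, and for Hoxb4 it was the negative library nearest to the positive ones. Aldh1a2 had 1, 1 and 2 counts in positive and 6, 2 and 0 counts in negative libraries. In tdTomato-negative 3, where it had no count, 3 counts would be 0.117 CPM, a limit that covers counting error only.

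**Figure D5:**
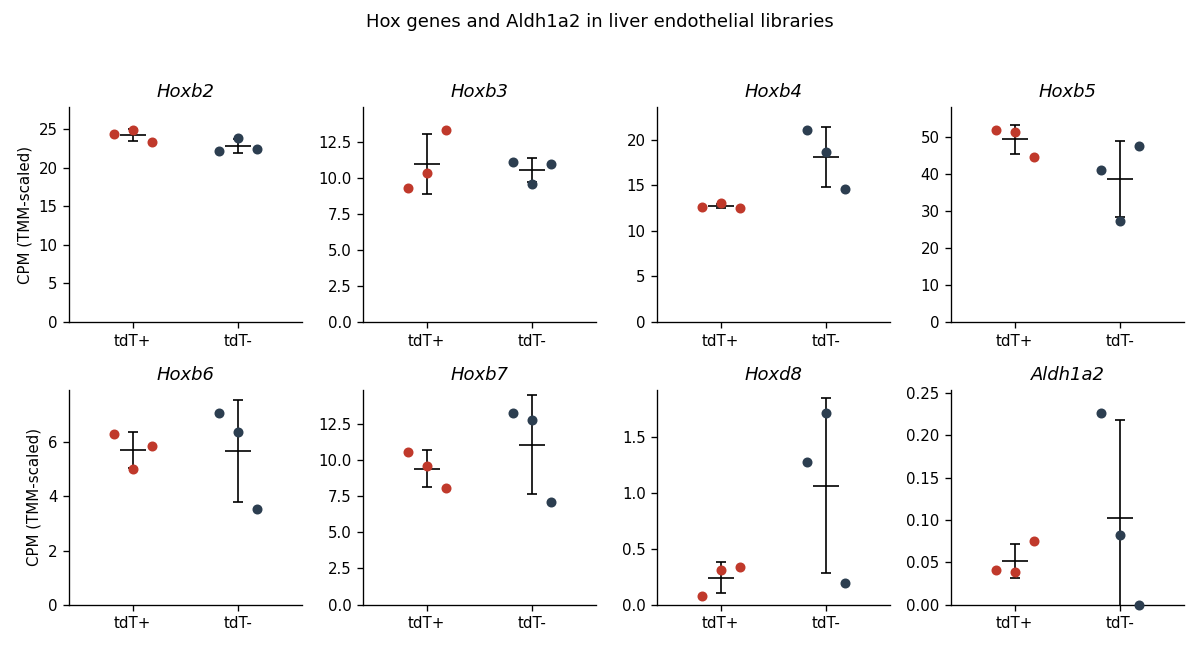
Level in CPM (vertical axis, TMM-scaled counts) of the 8 genes in tdTomato-positive (tdT+) and tdTomato-negative (tdT-) liver libraries; points are libraries and bars the mean ± SD of 3. Hoxb4 is the only gene without overlap, with positive libraries at 12.5 to 13.0 CPM and negative ones at 14.5 to 21.0 CPM.

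Of the 6 members that passed the filter in the liver, 0 passed edgeR's test after Benjamini-Hochberg adjustment, like 0 of all 13115 genes (0%), and DESeq2 called 0 of the 6. With tdTomato-negative 3 left out, 2 of 7 passed as lower by edgeR, Hoxb4 (fold change -0.65, adjusted p 0.00536) and Hoxd8, where 16.1% of all genes did. Of 7 other Hox genes tested, 5 had a fold change below 0, as did 49.6% of all genes. By edgeR 0 of the 7 passed, 1 was lower at an unadjusted p under 0.05 where 9.36% of all genes were, and the median fold change was -0.22 (log2), against 0.00312 over all genes. DESeq2 called 0 of these 7, where it called 4.45% of all genes lower. Hoxd9 was the gene with the small p, with 0, 3 and 8 counts in positive and 24, 27 and 14 counts in negative libraries (edgeR adjusted p 0.295). With tdTomato-negative 3 left out, Hoxa4, Hoxa5, Hoxd4 and Hoxd9 passed as lower by edgeR, 4 of 8, beside the same 16.1% of all genes. Genes of veins and arteries summed to 1283 to 1339 CPM in positive libraries, against 2656, 3333 and 1506 CPM in negative libraries. Mesothelial and epicardial genes summed to 25.8 to 38.9 CPM in positive libraries, against 173.0, 194.2 and 38.8 CPM in negative libraries. Most of that sum came from Gpm6a, at 23.8 to 37.3 CPM in positive and 35.3 to 183.7 CPM in negative libraries. The mesothelial genes Upk3b and Msln were at no more than 1.68 and 1.36 CPM in any liver library. Fibroblast genes summed to 27.04 to 70.5 CPM in positive libraries, against 96.7, 222.7 and 29.95 CPM in negative libraries. In all 3 sums tdTomato-negative 3 was close to the positive libraries, and their part in the Hox values was not tested.

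Around the Hox genes, 3 regulators had all positive libraries below all negative ones, Kmt2a, Kdm6b and Bmi1, and 2 of the 11 tested had an unadjusted p under 0.05 as lower, with 0 past the adjusted threshold by edgeR. Over all genes, 9.91% had that separation and 9.36% were lower at an unadjusted p under 0.05. Kmt2a, the trithorax group methyltransferase that maintains Hox expression, averaged 32.5 ± 0.867 CPM in positive cells against 48.1 ± 3.92 CPM in negative cells (SD, n = 3). Its fold change was -0.56 ± 0.09 (log2, SE, edgeR adjusted p 0.276). Kdm6b, a demethylase of the Polycomb mark, averaged 30.6 ± 3.05 CPM in positive libraries and 58.3 ± 22.7 CPM in negative ones (edgeR adjusted p 0.276). DESeq2 called Kmt2a and Kdm6b as lower, 2 of 11, where it called 4.45% of all genes as lower. Rara, a retinoic acid receptor, averaged 55.5 ± 2.13 CPM in positive cells against 93.0 ± 19.7 CPM in negative cells, without overlap (fold change -0.75 ± 0.16, edgeR adjusted p 0.276). It was the 1 gene of the 9 receptors and corepressors that reached an unadjusted p under 0.05, and DESeq2 called it as lower. Rarb averaged 109.7 ± 8.56 CPM in positive cells against 83.0 ± 24.5 CPM in negative cells, with overlap. Of 13 genes of retinoid uptake and metabolism tested in the liver, 0 passed by edgeR, and 3 had an unadjusted p under 0.05, all lower, Rbp4 and Aldh1a1 among them, and DESeq2 called 1 of the 13. Cyp26b1 averaged 245.3 ± 61.8 CPM in positive cells against 115.4 ± 95.6 CPM in negative cells, where tdTomato-negative 3 (220.3 CPM) lay within the positive range. With tdTomato-negative 3 left out, edgeR called 3 of the 11 regulators lower, Kmt2a and Kdm6b among them. It called 1 of the 9 receptors and corepressors lower, Rara. Of the 13 retinoid genes 4 passed as lower and 1 as higher. Over all genes, 16.1% passed as lower and 15.4% as higher in that setting. These regulators and receptors were singled out after their values were seen.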

How the data were processed

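RNA was captured as poly(A) RNA, amplified as full-length cDNA and read as paired 100 bp reads, per the labels' protocols. The submitters' processing notes name build mm10. Aligner, counting program and annotation are not given in the sources used here. Per the file headers, each table holds TPM and read counts, 1 column of each per library. Because only 80.3% to 83.5% of the count values are exactly whole, the deposited values were taken for expected counts of the authors and were rounded. The deposited TPM, scaled by the authors for length and depth, served to order genes within a library and to show levels per length. The heart and liver tables were normalized separately, and no test was run on TPM.

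The count test was that of edgeR 4.0.16 under R 4.3.3 (default filter, TMM, robust quasi-likelihood, 1 mean per group). The heart model held 12 libraries and the liver model 6. P-values were adjusted by Benjamini-Hochberg over all genes tested, with a threshold of 0.05. DESeq2 1.42.0, other filters and scaling, a replicate block and omission of each library served as alternatives. Simulated counts with known changes were used to test the scripts. Nothing in the labels says that replicates came from separate animals, so p-values measure only the spread between libraries. Replicate libraries all differed by more than counting noise. Members and lists were chosen with earlier results of these data known. Named were all members, listed genes that passed or were highest in level, and the 5 most alike by correlation. Some genes of the lists are counted in them but not reported here.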

Additional observations from a re-analysis of the deposited data

How the results depend on the processing

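Alternatives left the edgeR count of called genes at 0 in most cases. DESeq2 called 87 genes over the 4 heart regions, 18 for VS against the other regions and 683 in the liver, where edgeR called 0 each, with 1084, 556 and 1872 at an unadjusted p under 0.05. With the replicate number as a replicate block, edgeR called 0 in each, with 1440, 685 and 1314 at an unadjusted p under 0.05. Deviations of same-numbered libraries from their group means had correlations of -0.0572 to 0.235 in the heart and -0.207 to -0.0103 in the liver. Differently numbered libraries had -0.17 to 0.178 and -0.148 to 0.211. These ranges overlap, so they cannot show whether the numbers mark pairs, and the main tests took none. Leaving out 1 library gave 0 to 1481 genes over the 4 regions, 0 to 703 for VS and 0 to 4230 in the liver, the highest heart values without VS 1 and the highest liver value without tdTomato-negative 3. Leaving out LV 2 gave 2 over the 4 regions, and each other omission 0. The cause was not tested. RLE scaling and both other filters called 0. For the members, all 118 alternative fold changes in VS stayed below 0, and 116 moved by less than 1 SD. The exceptions were Hoxb4 without VS 1 (-2.09) and Aldh1a2 without VS 3 (-4.27). In the liver all 66 moved by less than 1 SD, and Hoxb3 and Hoxb6 changed sign around 0. Depth limits Hoxb6 and Hoxb7 most, with at most 9 and 14 counts in any heart library.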
